A study of Mus musculus with 9 samples.

Results

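The comparison set whole aorta of mice with Cre recombinase in smooth muscle, intended to remove the angiotensin II type 1a receptor there, against aorta of mice with the same floxed receptor allele and no Cre. It used 6 of the 9 libraries of the series, 3 per group, and 13914 of the 37668 genes in the deposited table. These genes stood at 1 FPKM or more (fragments per kilobase of transcript, scaled to the depth of the library) in at least 1 of the 2 groups and did not have the status HIDATA, which marks a locus with too much signal to be estimated. All mice were males aged 90 days on a 129T2SvEmsJ:C57Blk/6J background, and all carried the AT1ar floxed genotype. The floxed group had no Cre transgene, the Sm22Cre group had Sm22-Cre, and the Cdh5Cre group, whose values are given in parentheses or beside the others, had Cdh5-Cre, which is active in endothelium. The series title names Marfan syndrome, but the labels of these samples list no Marfan allele. Sm22-Cre is driven by the promoter of Tagln, the gene for the smooth muscle actin-binding protein transgelin, which is also known to be active in the embryonic heart.

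Angiotensin II is a peptide that constricts vessels and acts on the vessel wall mainly through the type 1 receptor, a receptor coupled to Gq proteins. In smooth muscle it raises cytosolic calcium, which activates myosin light chain kinase, and over longer times it is known to affect matrix and growth genes. Mice have a pair of type 1 receptor genes, of which Agtr1a is the main form in vessels.

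The deposited table gives 1 FPKM value per group and gene, with the 3 libraries of a group already combined by the authors. No value per library was used, the depth of the libraries is unknown, and no difference below has a replicate check, an error or a test. Differences are therefore given as both FPKM values and as the log2 ratio of (FPKM + 1), Sm22Cre over floxed, a scale that understates differences of low genes. A gene is counted as past 1.5-fold or past 2-fold on that scale.

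The targeted gene came first. Agtr1a (ENSMUSG00000049115, mm9 chr13:30428310-30474736) stood at 1.75 FPKM in floxed and 1.21 in Sm22Cre (1.32 in Cdh5Cre), which was 31.1% lower. Of 604 protein-coding genes with a mean level near that of Agtr1a (1.18 to 1.85 FPKM), 37 (6.13%) were lower by as much or more. The floxed exon is not named in the labels, the value covers the whole gene, and the aorta holds other cells, so this value does not check the deletion. Agtr1b was at 0.353 FPKM in floxed and 0.393 in Sm22Cre, and Agtr2, the type 2 receptor gene, at 0.0921 and 0.0366. Tagln itself stood at 4089 and 4112 FPKM.

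Aortic identity was plain in both groups. Smooth muscle genes such as Myl9 (4213 FPKM in floxed and 4056 in Sm22Cre), Tpm2 (2140 and 2086) and Myh11 (1341 and 1267) were among the highest of the table. Acta2 and Flna, also major smooth muscle genes, are listed at 0 in both groups with the status HIDATA, as are 5 mitochondrially encoded genes. Such zeros can be failed estimates and are not read as absence. FPKM over all listed genes summed to 495724 in floxed and 500015 in Sm22Cre.

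The combined values of the 2 groups were close to each other for most genes. The median log2 ratio was 0.00, the interquartile range ran from -0.07 to 0.08, and 98.4% of genes lay within 1.5-fold. Past 1.5-fold were 216 genes (1.55%), of which 88 were higher in Sm22Cre (0.632%) and 128 lower (0.92%). Past 2-fold were 90 genes (0.647%), with 43 higher (0.309%) and 47 lower (0.338%). Small non-coding RNA genes, which an mRNA library measures poorly, made up 31 of the higher and 28 of the lower genes at 1.5-fold, although only 132 such genes were analysed. Among the 90 genes past 2-fold, 48 were listed at 0 in 1 group, 24 in each, among them the microRNA gene Mir34a, at 31.0 FPKM in floxed and at 0 in the other groups. With the filter and scale used, every analysed gene at 0 in 1 group is past 2-fold, so their place there was fixed in advance. Of the 12142 protein-coding genes, 117 (0.964%) were past 1.5-fold, 37 higher and 80 lower. Genes just inside the level threshold were Msi1 (1.00 FPKM in floxed and 0.969 in Sm22Cre) and Col9a3 (0.700 and 1.00), and just outside it were Pmel (0.998 and 0.710) and Vsig10l (0.999 and 0.810).

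Of the 117 protein-coding genes, 64 were in at least 1 of the gene lists used here and 53 in none. The lists were chosen with earlier results of these data known, so these counts only describe them. Over all 12142 protein-coding genes, 0.964% were past 1.5-fold. Lists of heart and skeletal muscle genes (25, 21 and 7 analysed) held 27 of the 80 lower genes and none of the higher ones. The red cell, platelet, neutrophil and lymphoid lists (8, 8, 5 and 3 analysed) held 15 of the 37 higher genes and none of the lower ones. The clock lists (7 and 13 analysed) held 3 higher and 2 lower genes. The heat shock list (17) held 3 higher, the glucocorticoid list (15) 2 higher and the cartilage list (9) 3 lower. The genes in no list were 12 higher and 41 lower ones.

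**Figure D1:**
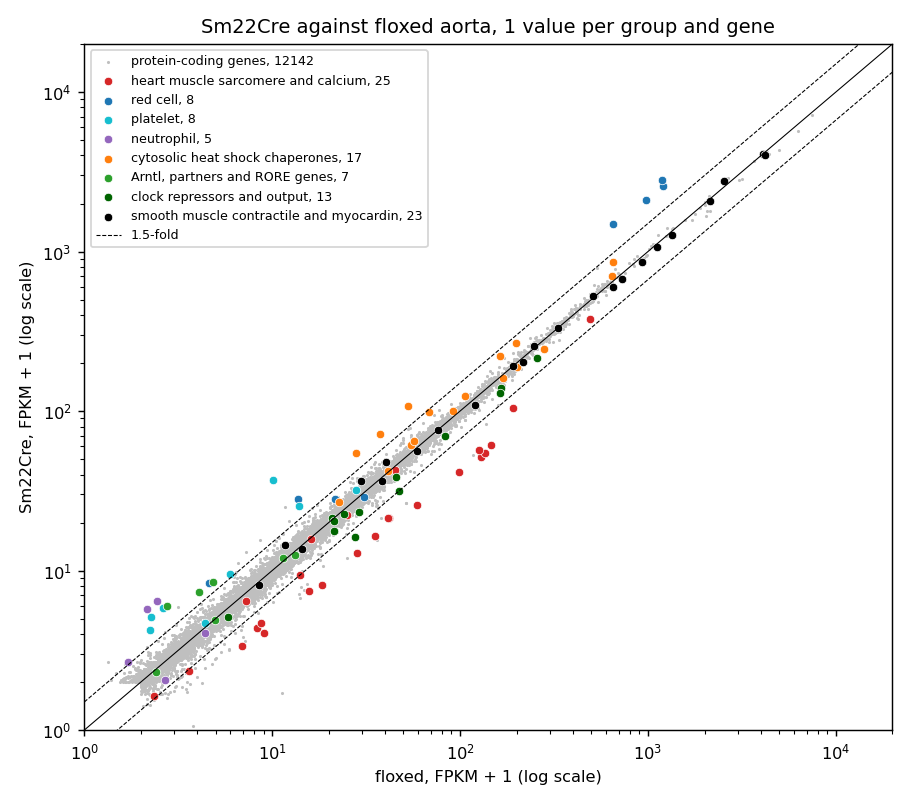
Level of each protein-coding gene in floxed (x axis) and Sm22Cre aorta (y axis), both as FPKM + 1 on log scales, with 1 authors' value per group. Grey points are the 12142 protein-coding genes and coloured points are lists. Of the heart sarcomere genes 19 of 25 lie below the lower 1.5-fold line, 6 of 8 red cell and 6 of 8 platelet genes lie above the upper one, and smooth muscle contractile genes lie along the diagonal.

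Heart muscle genes were the largest group that was lower. All 25 members of the list of sarcomere and calcium genes of the heart were lower in Sm22Cre, 19 past 1.5-fold and 12 past 2-fold, and their median log2 ratio was -0.98 beside 0.00 for all genes, the middle 50% of members spanning -1.17 to -0.59. Their levels summed to 1677 FPKM in floxed, 952 in Sm22Cre and 2229 in Cdh5Cre. In bulk tissue, fewer cells of a type and less RNA per cell cannot be told apart. Of the 25 genes, 8 had the status FAIL, which marks a failed estimate, and 11 lay in a locus that the table gives to more than 1 gene. Over the 17 members with the status OK the median was again -0.98.

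Contractile proteins of both heart chambers led the list. Myl4 and Myl7, the myosin light chains of the atrium, were at 129 and 135 FPKM in floxed and 50.2 and 53.2 in Sm22Cre (191 and 202 in Cdh5Cre). Myl7 lies at mm9 chr11:5796640-5798785, its status was OK and its locus is not shared. Myl2, the ventricular light chain, was at 58.2 and 24.9 FPKM (116 in Cdh5Cre), and Myl3, shared by ventricle and slow skeletal muscle, at 40.9 and 20.2. Myh6, the fast cardiac myosin heavy chain, was at 97.3 and 40.5 FPKM, and the slower Myh7 at 7.25 and 3.36. Atrial and ventricular forms thus stood lower by like amounts. In subsets drawn up after the values were seen, 7 atrial genes had a median log2 ratio of -0.98, 3 ventricular genes -0.98 and 8 genes of both chambers -1.13.

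Thin filament genes followed. Actc1, cardiac actin, was at 125 FPKM in floxed and 56.2 in Sm22Cre (182 in Cdh5Cre). The troponin genes Tnni3 (145 and 60.2 FPKM), Tnnt2 (189 and 104) and Tnnc1 (8.09 and 3.04) were lower by 1.83-fold to 2.66-fold. Mybpc3, cardiac myosin-binding protein C, was at 14.7 and 6.41 FPKM, and Csrp3, a LIM protein of the Z-disc, at 27.2 and 11.9.

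Calcium handling genes of heart muscle were lower too. Casq2, the calcium store protein calsequestrin, was at 17.4 and 7.08 FPKM. Sln and Pln, small membrane proteins that restrain the calcium pump, were at 34.2 and 40.2 FPKM in floxed and 15.5 and 20.3 in Sm22Cre. The members nearest to no difference were Xirp1 (15.1 and 14.9 FPKM), Ldb3 (44.2 and 41.7), Myoz2 (23.9 and 21.3) and Ryr2 (6.22 and 5.46), of which Ldb3 and Ryr2 are known also from other cell types. Sm22Cre was the lowest of the 3 groups for 24 of the 25 genes, all but Ryr2. For 21 genes the order was Sm22Cre, floxed, Cdh5Cre.

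**Figure D2:**
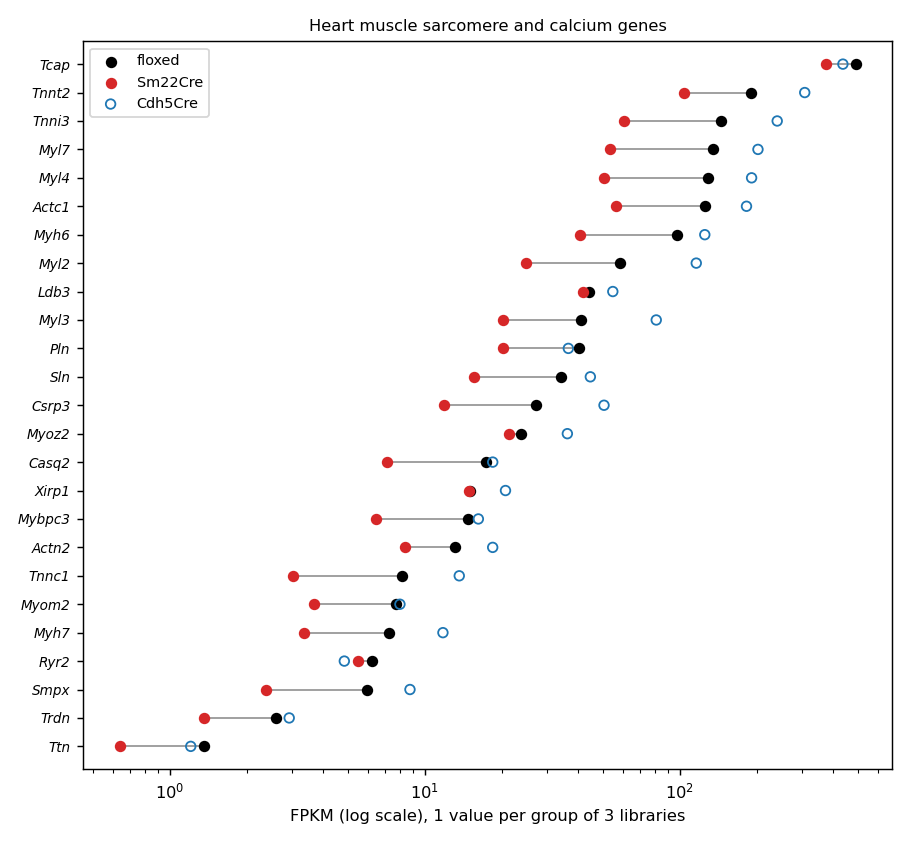
FPKM (x axis, log scale) of the 25 heart muscle sarcomere and calcium genes, 1 value per group of 3 libraries, ordered by level in floxed. Filled points joined by a line are floxed and Sm22Cre, and open points are Cdh5Cre. Sm22Cre lies to the left of floxed for every gene, from 1.01-fold for Xirp1 to 2.66-fold for Tnnc1.

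The list of cardiac regulators, peptides and energy genes had 21 analysed members of 24, of which 20 were lower, 8 past 1.5-fold, with a median of -0.47. The transcription factor genes Tbx5 (1.80 FPKM in floxed and 0.676 in Sm22Cre) and Nkx2-5 (1.54 and 0.722) were lower, and Gata4 was at 7.11 and 5.24. Nppa, the atrial natriuretic peptide gene, was at 50.8 and 25.5 FPKM. Mb, myoglobin, was at 116 and 52.1 FPKM and Cox6a2, the muscle form of a cytochrome oxidase subunit, at 35.1 and 14.7. Ckm, Ckmt2 and Pgam2, enzymes of muscle energy use, were at 14.3, 13.3 and 13.9 FPKM in floxed and 7.19, 6.84 and 6.53 in Sm22Cre. The exception was Gja5, a connexin of atrium and arterial endothelium, at 14.6 FPKM in floxed and 17.2 in Sm22Cre.

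Of 18 genes of fast skeletal muscle 7 were analysed, none was past 1.5-fold on the log2 scale used, and the median was -0.03 (-0.13 over the 5 with the status OK). The members farthest from 0 were lower, Acta1, skeletal actin, at 3.92 and 2.41 FPKM (5.58 in Cdh5Cre) and Myl1, a fast light chain, at 9.60 and 7.01 (20.8). Casq1 was at 69.9 and 72.3 FPKM and Tnnt3 at 3.20 and 3.11, and the fast myosin genes Myh1 and Myh2 were below 0.03 FPKM in both groups. Some of the 41 lower protein-coding genes that no list held are also known from striated muscle. They were not counted, and those given here were chosen after their values were seen. They include Lmod2 (4.91 and 2.19 FPKM), Smyd1 (4.93 and 2.21), Fhl2 (16.9 and 10.7) and the potassium channel gene Kcnj5 (2.01 and 0.757). Kcnj3, its partner in the atrial channel and a list member, was at 2.33 and 0.857.

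Blood cell genes were the largest group that was higher. The red cell list had 8 of 12 members analysed, 7 higher, 6 past 1.5-fold and 5 past 2-fold, with a median log2 ratio of 1.07, and its sum was 4074 FPKM in floxed, 9091 in Sm22Cre and 25543 in Cdh5Cre. Over its 4 members with the status OK the median was 0.61. The globin genes Hbb-bs (1188 and 2809 FPKM), Hbb-bt (647 and 1496), Hba-a1 (1201 and 2586) and Hba-a2 (972 and 2110) made up 0.81% of the FPKM sum in floxed and 1.80% in Sm22Cre (4.18% in Cdh5Cre). Each pair is nearly identical, so reads could be split between its copies. Alas2, the first enzyme of erythroid heme synthesis, was at 12.7 and 27.1 FPKM. Fech, the last enzyme of that pathway, which other cells also use, was at 29.7 and 27.9. Slc4a1, the anion exchanger of the red cell membrane, was low, at 0.127 and 0.415 FPKM.

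Platelet genes were higher too. All 8 analysed members of 14 were higher, 6 past 1.5-fold, with a median of 0.90 and sums of 63.6 FPKM in floxed, 119 in Sm22Cre and 390.3 in Cdh5Cre, and all 8 had the status OK. Over all 14 members, with no filter on level, the median was 0.38. Ppbp (mm9 chr5:91197544-91199086), a platelet chemokine, was at 9.12 and 36.1 FPKM (153 in Cdh5Cre), with a log2 ratio of 1.87. The receptor gene Clec1b (1.28 and 4.10 FPKM), the tubulin gene Tubb1 (1.63 and 4.86) and the glycoprotein gene Gp9 (1.23 and 3.27) were also past 1.5-fold. Pf4, another platelet chemokine, was at 26.9 and 31.0, and Gp1bb at 3.37 and 3.66. Rgs18, a G protein regulator of platelets, was at 1.15 and 2.30 FPKM, the one member past 1.5-fold of its list.

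Neutrophil genes were low. Of 16 members 5 were analysed, 3 higher past 1.5-fold and 2 lower, with a median of 0.63, and 0.09 over all 16 with no filter on level. S100a8 and S100a9, which together form calprotectin, were at 1.15 and 1.43 FPKM in floxed and 4.73 and 5.49 in Sm22Cre (18.1 and 19.9 in Cdh5Cre). Csf3r, the receptor of the neutrophil growth factor, was at 0.716 and 1.66. It passed the filter only through Sm22Cre, its higher group, and its log2 ratio is the median of 0.63, so that median depends on the filter. Lcn2 (1.69 and 1.06 FPKM) and Mmp9 (3.37 and 3.07) were lower, and Ly6g was listed at 0 in floxed and at 0.130 in Sm22Cre. Only 3 of 19 lymphoid genes were analysed, all higher but none past 1.5-fold, with Ptprc at 2.05 and 2.53. The 18 macrophage genes had a median of 0.06 with none past 1.5-fold, among them Cd163 at 6.96 and 8.45 FPKM.

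**Figure D3:**
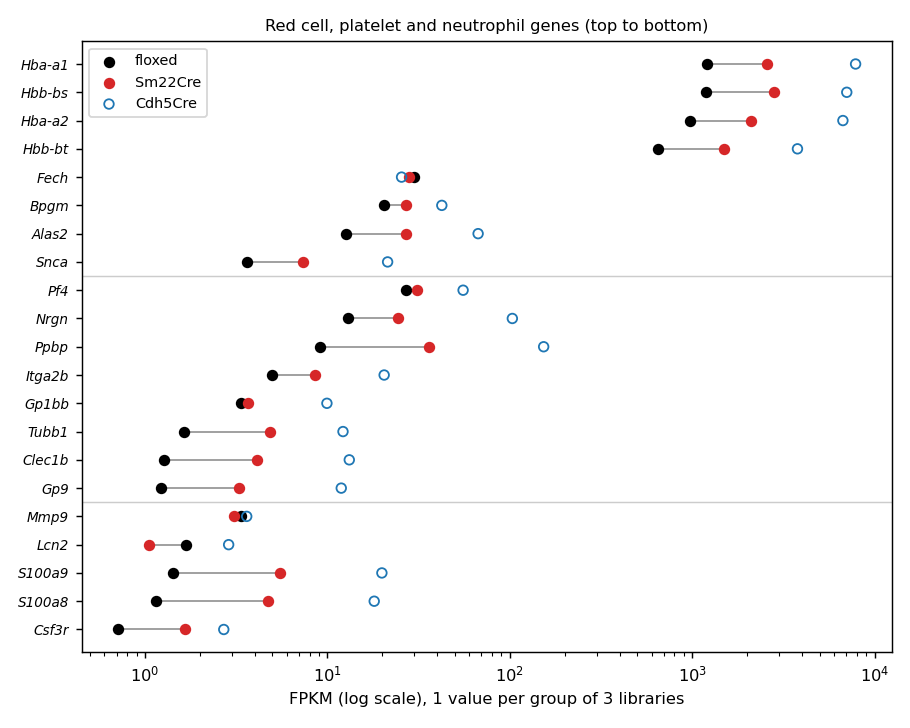
FPKM (x axis, log scale) of the analysed red cell, platelet and neutrophil genes, 1 value per group of 3 libraries. Filled points joined by a line are floxed and Sm22Cre, and open points are Cdh5Cre. For 7 of 8 red cell and all 8 platelet genes the order is floxed, Sm22Cre, Cdh5Cre.

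Some clock genes were higher and others lower. The activator Arntl, its partner Npas2 and the repressor Nfil3 were higher past 1.5-fold, and Bhlhe41 and Hlf were lower past 1.5-fold. The circadian clock is a feedback loop in which Arntl, with Clock or Npas2, activates the Per, Cry and Nr1d genes through E-boxes, and the Nr1d proteins in turn repress Arntl and Nfil3 through RORE sites. Arntl (mm9 chr7:120350979-120457636) was at 1.77 FPKM in floxed and 5.02 in Sm22Cre (2.88 in Cdh5Cre), Npas2 at 3.06 and 6.38 (4.01), and Nfil3 at 3.83 and 7.43 (8.80). The other members of their list, which holds Arntl, its partners and genes known to be regulated through RORE sites, were close between the groups. Clock was at 10.4 and 10.9 FPKM, the repressor Cry1 at 3.95 and 3.90 and Rora, an activator of Arntl, at 12.3 and 11.4. Over the 7 members 4 were higher and 3 lower, with a median of 0.06. Over the 5 at 5 FPKM or more in either group the median was 0.80. Arntl, Npas2 and Nfil3 passed that filter only through Sm22Cre, their higher group, so the median of 0.80 follows from the filter. Of 13 repressor and output genes, 12 were lower, with a median of -0.27 and 2 past 1.5-fold. These were Bhlhe41, a repressor, at 26.5 and 15.2 FPKM (13.5 in Cdh5Cre), and Hlf, an output factor, at 46.5 and 30.6 (20.1). Dbp (257 and 213 FPKM), Tef (163 and 129), Nr1d1 (165 and 138) and Per1 (44.8 and 37.5) were lower by less, and Per2 was at 19.8 and 20.3. The labels used here give no hour of tissue collection for either group.

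Promoters of the genes with the largest clock differences were searched for the loop's own motifs, RORE (TAGGTCA) and E-box (CACGTG), on both strands. The windows below are 60 bases from RefSeq promoters of build GRCm38.p6, read 5′ to 3′ on the gene's strand, with the motif in capitals. They show the RORE of both higher genes that hold one and the E-box of 2 lower genes. The RORE of Arntl begins at base 31 of the transcript (chr7:113207501-113207560, plus strand), and that of Nfil3, read on the opposite strand, 12 bases before the start site (chr13:52981019-52981078, minus strand). The E-box of Bhlhe41 begins 153 bases before the start site (chr6:145865541-145865600, minus strand) and that of Tef 127 bases before it (chr15:81802519-81802578, plus strand).
Arntl: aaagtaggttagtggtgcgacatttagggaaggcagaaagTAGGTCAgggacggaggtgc
Nfil3: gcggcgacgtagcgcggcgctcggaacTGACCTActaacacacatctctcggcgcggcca
Bhlhe41: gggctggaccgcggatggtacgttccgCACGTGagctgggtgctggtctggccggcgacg
Tef: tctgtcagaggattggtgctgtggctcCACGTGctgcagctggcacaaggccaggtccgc

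The RORE was found in 2 of the 6 genes of the Arntl list with a promoter in the table, beside 2.61% of all 32851 promoters and 2.20% of the analysed genes with a promoter. The E-box was found in 4 of 11 repressor and output genes (Per1, Tef, Ciart and Bhlhe41), beside 7.15% of all promoters and 11.6% of analysed genes. A match is a description of the sequence and not evidence of binding. Npas2 and Hlf, both past 1.5-fold, held neither motif in these 300 bases.

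Heat shock chaperones were higher, most of all the inducible ones. The list is mainly of cytosolic chaperones but also holds Hspd1 and Hspe1, which are mitochondrial. Of 17 genes 14 were higher and 3 were past 1.5-fold, with a median of 0.23. Hspa1b (mm9 chr17:35093381-35096183) was at 51.9 FPKM in floxed and 107 in Sm22Cre (81.4 in Cdh5Cre), and Hspa1a at 36.3 and 71.2 (55.8). This pair encodes the inducible Hsp70. The 2 copies are nearly identical and Hspa1a shares its locus with the readthrough gene Gm20481 (36.8 and 70.3 FPKM), so their separate values are uncertain. Hsph1, an Hsp70 exchange factor, was at 27.0 and 53.5 FPKM (31.5 in Cdh5Cre). Of the 17 genes 7 had the status FAIL, among them Hspa1b, Hsph1 and Dnaja1. Over the 10 with the status OK the median was 0.18. Below 1.5-fold were Dnaja1 (67.3 and 97.4 FPKM), Hsp90aa1 (163 and 222), Hspb1 (199 and 265) and Hspa8 (653 and 856). The small heat shock genes of muscle, Cryab (168 and 161 FPKM), Hspb6 (201 and 187) and Hspb7 (278 and 243), were the 3 that were lower.

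Genes of this kind are known targets of heat shock factor, whose element is built of GAA and TTC units. The motif searched, GAA and TTC separated by 2 bases, was chosen after the values were seen. It was found in 10 of the 13 heat shock genes with a promoter in the table (76.9%), beside 7.86% of all promoters and 7.04% of analysed genes. Hspb6, which was lower in Sm22Cre, held it. Dnajb1 and Dnajb4, which were higher, and Hspb7, which was lower, did not. The windows show it in the gene with the highest ratio and in 2 that were higher by less, with starts 104, 124 and 97 bases before the start site (chr17:34959309-34959368, minus strand, chr4:40722318-40722377, plus strand, and chr5:135887796-135887855, plus strand, all GRCm38.p6).
Hspa1b: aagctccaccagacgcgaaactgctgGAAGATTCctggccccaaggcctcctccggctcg
Dnaja1: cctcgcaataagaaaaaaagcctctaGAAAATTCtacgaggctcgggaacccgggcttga
Hspb1: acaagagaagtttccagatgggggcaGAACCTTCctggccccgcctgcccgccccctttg

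The window of Hspa1a was identical to that of Hspa1b over all 60 bases, and their 300-base promoters were identical at 296 positions (98.7%).

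**Figure D4:**
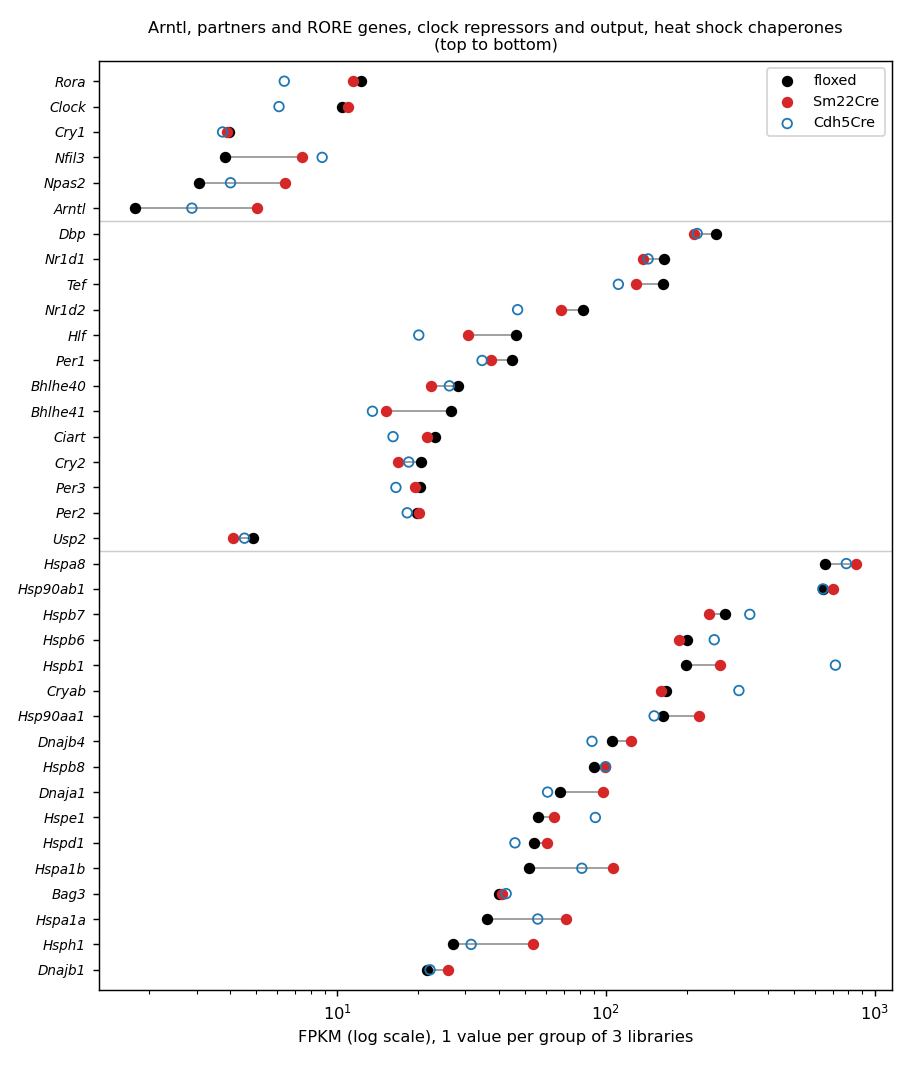
FPKM (x axis, log scale) of 6 genes of the Arntl list, clock repressors and output genes, and heat shock chaperones, 1 value per group of 3 libraries. Filled points joined by a line are floxed and Sm22Cre, and open points are Cdh5Cre. Arntl, Npas2 and Nfil3 lie to the right of floxed in Sm22Cre, 12 of 13 repressor and output genes to the left, and Hspa1a, Hspa1b and Hsph1 to the right.

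Genes of endoplasmic reticulum chaperones and of the stress response of that organelle were higher by small amounts. The list also holds transcription factor genes, such as Atf4 (79.4 FPKM in floxed and 91.3 in Sm22Cre) and Ddit3 (28.7 and 32.8). Of 22 genes 18 were higher and none was past 1.5-fold, with a median of 0.12 and Hspa5, the lumenal Hsp70, at 234 and 284 FPKM. The CCAAT box (CCAAT), part of the known stress element of such chaperones, was found in 19 of the 20 listed genes with a promoter in the table. It was in 37.4% of all promoters and 42.7% of analysed genes. Other lists held it often too, with 5 of 6 red cell genes, 5 of 6 of the Arntl list and 8 of 11 clock repressor and output genes. It was in 11 of 20 heart sarcomere genes and 7 of 13 heat shock genes.

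The glucocorticoid and mineralocorticoid list had 15 analysed genes, 11 higher and 2 past 1.5-fold, with a median of 0.16. Zbtb16, a zinc finger gene strongly induced by glucocorticoids, was at 7.66 FPKM in floxed and 14.5 in Sm22Cre (6.42 in Cdh5Cre). Fkbp5, a chaperone that limits the receptor, was at 11.4 and 19.4 (15.4). Other known targets differed by less, with Ddit4 at 13.4 and 18.9 FPKM, Errfi1 at 33.9 and 45.4 and Tsc22d3 at 50.3 and 58.9. Per1 and Klf9, also targets, were lower (83.6 and 74.8 FPKM for Klf9), and so was Nr3c1, the receptor gene (45.7 and 40.0).

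Contractile and myocardin genes of smooth muscle, the cell type meant to lose the receptor, were close between the groups. Of 23 analysed members of 26, 7 were higher and 16 lower, none was past 1.5-fold, and the median was -0.05 (range -0.12 to 0.30). Mylk, the kinase of myosin light chain, was at 330.1 and 330.0 FPKM, Cnn1, calponin, at 507 and 529, and Smtn, smoothelin, at 650.2 and 601. The largest differences were those of the transcriptional coactivators Myocd (28.9 and 35.7 FPKM) and Mrtfa (10.8 and 13.4), both higher and both with the status FAIL. Pericyte genes had a median of -0.11, with none of 8 past 1.5-fold and Pdgfrb at 87.4 and 72.8.

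Genes of the renin-angiotensin system and of the receptor's signalling chain showed few differences. Of 10 analysed renin-angiotensin genes, 1 was past 1.5-fold and the median was -0.04. It was Ren1, the gene of the enzyme renin (mm9 chr1:135247087-135256902), at 3.37 FPKM in floxed and 1.45 in Sm22Cre (3.37 in Cdh5Cre). Ace, the converting enzyme, was at 184 and 187 FPKM, and Lnpep, an aminopeptidase that binds angiotensin IV, at 34.4 and 30.0. None of the 23 genes of Gq, G12/13 and arrestin signalling was past 1.5-fold (median -0.04). Gnaq was at 18.9 and 18.2 FPKM, the phospholipase gene Plcb4 at 216 and 201, and Rock1, a kinase that sensitises the contractile apparatus to calcium, at 47.0 and 60.4. The 9 G protein regulators had a median of -0.05, with the smooth muscle gene Rgs5 at 170.0 and 186 FPKM. The 18 genes of calcineurin and early angiotensin II response had a median of -0.01 and none past 1.5-fold, with Rcan1, a calcineurin inhibitor, at 18.7 and 20.2.

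Other genes of vascular tone were likewise close. The 20 vasoactive receptor genes had a median of -0.04 and none past 1.5-fold. Adra1d, the main alpha-1 adrenergic receptor of mouse aorta, was at 50.7 and 42.5 FPKM, and Ednra, the endothelin receptor of smooth muscle, at 5.98 and 5.51. The 16 genes of nitric oxide and cGMP relaxation had a median of 0.02 and none past 1.5-fold, with Nos3 at 12.3 and 14.7 FPKM. Calcium and potassium handling genes were lower in 16 of 20, with a median of -0.13. The 2 past 1.5-fold were Pln, given above with the heart genes, and Cacna1h, a T-type calcium channel gene, at 4.003 and 1.83 FPKM (3.42 in Cdh5Cre). Cacna1c, the L-type channel of smooth muscle, was at 14.9 and 11.1 FPKM (6.46 in Cdh5Cre), and Kcnmb1, the smooth muscle subunit of the large-conductance potassium channel, at 72.6 and 73.6.

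Matrix genes were close as well. None of the 21 elastic fibre genes (median -0.01), the 19 collagen chains (-0.05), the 27 proteoglycan and matricellular genes (-0.06) or the 24 matrix proteases and inhibitors (0.08) was past 1.5-fold. Eln was at 1134 and 1270 FPKM, Fbn1, the gene of Marfan syndrome, at 56.4 and 57.9, and the crosslinking enzyme gene Lox at 53.7 and 69.6. The matricellular genes Ccn2 and Ccn1 differed in opposite directions, Ccn2 at 532 FPKM in floxed and 783 in Sm22Cre, Ccn1 at 157 and 108. Timp1, a protease inhibitor, was at 37.997 and 26.1.

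Signalling genes of the wall gave the same picture. The 16 TGF-beta ligands, receptors and mediators had a median of -0.07, with Thsd4, a microfibril-binding protein gene, at 124 and 103 FPKM. The 16 TGF-beta and BMP response genes had a median of 0.05, with 9 higher and 7 lower. Among BMP targets, Id1 was at 52.1 and 76.1 FPKM and Id3 at 170.4 and 215, while Id4 was at 31.2 and 28.2 and Smad6 at 27.5 and 25.6. The 17 genes of YAP and mechanical signalling (median -0.01) and the 13 Notch genes (-0.05) had none past 1.5-fold, with the Notch ligand gene Dll1 at 3.18 and 5.15. Of 27 immediate early genes 1 was past 1.5-fold, Fosb at 4.51 and 2.48 FPKM, and the median was -0.05. Of 12 insulin-like growth factor genes 10 were lower, and 1 was past 1.5-fold. It was Igfbp2, a binding protein gene, at 50.6 FPKM in floxed and 25.4 in Sm22Cre (27.7 in Cdh5Cre), with the status FAIL.

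**Figure D5:**
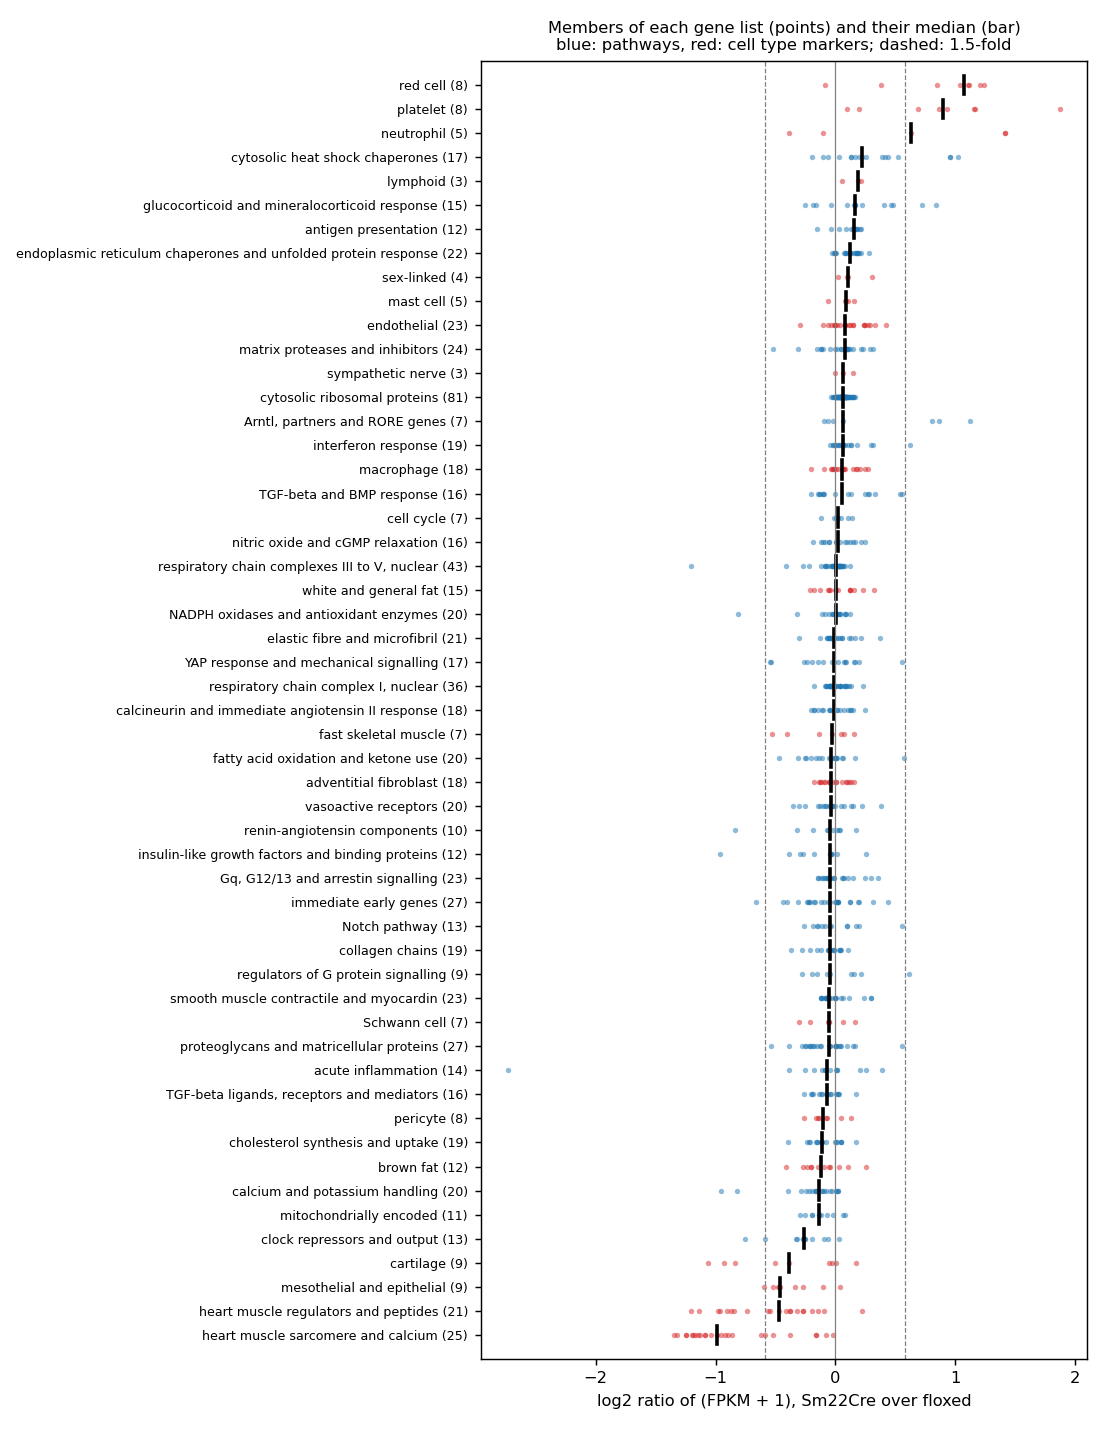
Log2 ratio of (FPKM + 1), Sm22Cre over floxed, for each member (points) and the median (bar) of the gene lists, with the number of analysed members in brackets. Blue marks pathways, red marks cell type markers, and dashed lines mark 1.5-fold. The 3 blood lists stand at the top, the heart lists at the bottom, and most other medians lie near 0.

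Most analysed markers of mesothelium and of cartilage were lower. Of 9 mesothelial and epithelial genes 8 were lower, with a median of -0.47 (-0.27 over the 14 found, with no filter on level) and 1 past 1.5-fold, the protease inhibitor gene Slpi at 2.20 and 1.12 FPKM. The keratin genes Krt8 (2.26 and 1.36 FPKM) and Krt19 (3.52 and 2.16) and the uroplakin gene Upk3b (11.5 and 8.06) were lower by less, and Clu, made by many cells, was at 701 and 722. Of 9 cartilage genes 7 were lower, with a median of -0.38 and 3 past 1.5-fold, and over all 16 listed genes found, with no filter on level, the median was -0.04. The 3 were Clec3a (24.0 and 11.0 FPKM, and 7.13 in Cdh5Cre), Chad, chondroadherin (37.0 and 20.2), and Ucma (2.46 and 0.817). Sox9, the cartilage regulator, was at 4.52 and 2.90, while Cytl1 was at 277 and 279. In a set of melanocyte genes picked after their values were seen, Dct was at 2.68 and 1.63 FPKM, Mlana at 1.57 and 0.692 and Tyrp1 at 1.36 and 0.553, and the regulator Mitf was at 4.98 and 5.07.

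Markers of the other cell types had medians near 0 and no member past 1.5-fold. They were those of endothelium (23 genes, median 0.08), adventitial fibroblasts (18, -0.03), brown fat (12, -0.12), white and general fat (15, 0.00), mast cells (5, 0.09), Schwann cells (7, -0.06) and sympathetic nerve (3, 0.06). Cdh5, the endothelial cadherin gene, was at 13.7 and 13.6 FPKM, Sox18 at 9.08 and 12.5, and the brown fat gene Ucp1 at 63.8 and 62.0. Of the sex-linked list 4 genes were analysed (median 0.10), among them the Y-linked Ddx3y at 24.3 and 26.1 FPKM, and Xist was at 0.0828 and 0.101.

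Among the single genes, Saa3 had the lowest log2 ratio of the named genes, -2.73. This acute phase gene (mm9 chr7:53967368-53971046) was at 10.3 FPKM in floxed, 0.705 in Sm22Cre and 0.304 in Cdh5Cre, so floxed was the group that stood apart. The rest of the acute inflammation list did not follow it, with a median over 14 genes of -0.07, Hp at 34.7 and 31.9 and Vcam1 at 38.2 and 44.4. Hal, histidine ammonia-lyase, was at 2.77 and 0.0645 FPKM (1.07 in Cdh5Cre). Hamp, the hepcidin gene, was at 6.05 and 2.44 (11.8). Ctla2a, a protease inhibitor gene, was at 10.6 and 24.1 (86.5), in the order of the blood genes.

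Nnt, the mitochondrial transhydrogenase gene, was at 17.7 FPKM in floxed, 9.65 in Sm22Cre and 10.7 in Cdh5Cre, with the status FAIL. It was the 1 gene past 1.5-fold among 20 genes of NADPH oxidases and antioxidant enzymes (median 0.00). C57BL/6J mice are known to carry a deletion in Nnt that 129 strains lack, and these mice were of mixed background. The share of each background in each mouse is not in the labels.

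Genes of basic cell functions differed little. Of 81 cytosolic ribosomal protein genes 76 were higher, none past 1.5-fold, with a median of 0.06 and a range of -0.04 to 0.17. With the trend of length and GC content removed their median was 0.03. The 36 nuclear genes of respiratory complex I had a median of -0.01, and the 43 of complexes III to V a median of 0.01, with Cox6a2, given above, the one past 1.5-fold. The 11 mitochondrially encoded genes had a median of -0.14, with mt-Nd5 at 2041 and 1659 FPKM. Their median was -0.19 with the trend of length and GC content removed. It was 0.00 under quantile normalization, which gives both groups the same value at each rank. Genes of cholesterol synthesis and uptake (19 genes, median -0.11), fatty acid oxidation and ketone use (20, -0.03), antigen presentation (12, 0.16) and the cell cycle (7, 0.02) had none past 1.5-fold. Of these, the lipase inhibitor gene Angptl4 was at 9.82 and 15.1 FPKM. Of 19 interferon response genes 1 was past 1.5-fold, Rsad2 at 0.482 and 1.28 FPKM, and the median was 0.06. Rsad2 passed the filter only through Sm22Cre, its higher group.

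Properties of the transcript went with small shifts. Among protein-coding genes the median log2 ratio was 0.04 in the fifth with the shortest transcripts and -0.05 in that with the longest, and 2.18% and 0.577% of their genes were past 1.5-fold. With the dependence on length and GC content removed, the medians were -1.02 for the heart sarcomere list, 1.05 for red cells and 0.87 for platelets.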

How the data were processed

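Poly-A RNA of whole mouse aorta was sequenced as stranded paired-end libraries, per the labels' protocols. The submitters' processing notes name TopHat2 2.0.8, Bowtie2 2.1.0, SAMtools 0.1.7, Cufflinks 1.3.0 and build mm9. Their options, the gene annotation and whether counting used strand are not given in the sources used here. Overlapping and antisense genes may therefore share fragments (5966 of the 13914 genes analysed, 42.9%, share a listed locus). Per the file headers, the deposited values are FPKM, 1 per group and gene, with a status for each pair of groups. The status was OK for 75.5% of genes, FAIL for 24.2% and LOWDATA for 54 genes, and all 3 were kept. Library depth is unknown, and the labels number 3 libraries per group without saying that each came from a separate mouse.

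Groups were taken from titles. The log2 ratio of (FPKM + 1) was computed for genes at 1 FPKM or more in either group (13914 genes, with 23747 others below it and 7 with HIDATA left out). No count test or comparison column of the authors was used. The spread within groups cannot be computed, so a difference of 1.5-fold or 2-fold on that scale is a rule of size. Symbols, biotypes, lengths and GC content came from GENCODE M21 (13344 genes with a symbol, 570 without). Listed starts are counted from 0, and 1 was added. The members and the 53 gene lists were chosen with earlier results of these data known. Named genes are Agtr1a, Agtr1b, Cdh5, Tagln and Nnt, the 25 highest and 25 lowest protein-coding genes above 0 in both groups, every list member past 1.5-fold, and in each list the 4 members farthest from 0 and the most abundant one. Other list members, given as examples of a role, were chosen after their values were seen. The motifs were searched on both strands of RefSeq promoters (250 bases before to 50 after the start, GRCm38.p6), also for a GATA site, a D-box core and a TATA box, which are not reported.

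Alternatives were other pseudocounts, filters, scalings, status, biotype and locus rules, and removal of a smooth trend with length and GC content (spline, scikit-learn 1.9.0), which was tested on simulated data. Python 3.11.15, numpy 2.4.6 and pandas 2.3.3 were used. Some genes are not reported here.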

Additional observations from a re-analysis of the deposited data

How the results depend on the processing

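The values are 1 estimate per group, so nothing here sets a difference against the spread between mice. The heart sarcomere median stayed negative, between -1.09 and -0.92, under the 13 planned settings and 1 of 2 chosen after seeing the data. The other of these 2 left the heart, skeletal muscle and blood cell lists out and gave gene counts only. Among 731 list medians under the settings that gave them, those of the heart list included, 26 moved by 0.1 or more and 0 reversed. Of 3601 values of 274 named genes, 6 moved by 0.58 or more and 0 reversed. A change of sign was counted as reversed only for main medians at least 0.1 from 0 and for main gene ratios past 1.5-fold. Smaller values could change sign uncounted. With the length and GC trend removed, the collagen median went from -0.05 to 0.01 and Tagln from 0.01 to -0.02. The median over all genes shifted by less than 0.1 under every scaling. Low lists depended on the filter: without it, the medians were 0.38 for platelet, 0.09 for neutrophil and -0.04 for cartilage genes. With 5 FPKM the Arntl list stood at 0.80, a filter that Arntl, Npas2 and Nfil3 passed only through Sm22Cre, their higher group.

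Counts of genes are given as higher and lower past 1.5-fold, then higher and lower past 2-fold, beside 88, 128, 43 and 47. With a pseudocount of 0.1 they were 184, 200, 67 and 92, and the heart median was -1.09. With a filter of 5 FPKM they were 34, 50, 13 and 21. With 1 FPKM in both groups they were 48, 76, 16 and 19. With shared loci left out, which removes 5966 genes, they were 50, 65, 27 and 24. Among protein-coding genes they were 37, 80, 14 and 21, the same when a value above 0 in both groups was also required, an alternative chosen after seeing the data. With the trend of length and GC content removed among protein-coding genes they were 36, 78, 13 and 23. Without genes listed at 0, the counts past 2-fold were 19 and 23. The cause of these shifts was not tested beyond the fewer genes each rule leaves. No paired analysis was possible because the deposited values are 1 per group and the groups share no replicate number.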

Other observations

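The mitochondrial leucyl-tRNA synthetase gene Lars2, chosen after its values were seen, was at 137 FPKM in floxed, 81.9 in Sm22Cre and 364 in Cdh5Cre. The mitochondrial ribosomal RNA genes mt-Rnr1 and mt-Rnr2, which an mRNA library measures poorly, were at 267 and 344 FPKM in floxed, 281 and 359 in Sm22Cre, and 883 and 1025 in Cdh5Cre. Of the genes outside every list, Sbk3, a kinase gene, was at 2.51 FPKM in floxed, 0.731 in Sm22Cre and 0.562 in Cdh5Cre, and Apol11b at 0.333, 1.69 and 3.74.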
